A study of Homo sapiens with 12 samples.

Results

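SK-mel147 is an established human melanoma cell line. Of the 12 expression arrays made from it, 2 carry the hairpin name sh_84 in their titles, a hairpin directed at H2AZ1, and they are set here against the 4 arrays with control hairpins, 2 scrambled and 2 luciferase. The remaining arrays hold the other H2AZ1 hairpin, sh_83, and the H2AZ2 hairpins sh_37 and sh_38, each on 2 arrays. All groups share the same line, DMEM medium with serum and antibiotics, and RNA interference. The titles call the reagents siRNA, while the treatment protocol describes lentiviral hairpins for targets and controls alike, and the protocol's wording is used here. The sh_84 group rests on 1 hairpin in 1 line. On its replicate 2 the title names sh_84 and the RNAi field of the same record names sh_43, and the title was followed here. The labels do not say whether replicates are separate infections or cultures, so the p-values below cover no more than array-to-array spread, possibly only technical, and the small number of arrays limits the precision. All levels and differences are on the log2 scale, so that a difference of -1 means 50% of the level, and every difference is sh_84 minus the group it is set against.

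H2A.Z is a variant of histone H2A that takes its place in part of the nucleosomes, mainly around gene starts and enhancers. Its isoforms H2A.Z.1 and H2A.Z.2 come from the genes H2AZ1 and H2AZ2 and differ in a few amino acids. A hairpin is cut by DICER1 into a short RNA that guides Argonaute proteins to a matching transcript, and it can also lower other transcripts that match its seed. Double-stranded RNA is read by innate sensors such as TLR3, IFIH1 and RIG-I, which can switch on interferons, and interferons in turn switch on a large set of antiviral and antigen presentation genes.

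The targeted gene was examined first. H2AZ1 measured 12.10 and 12.15 in the sh_84 arrays, against 12.30 and 12.18 in the scrambled arrays and 12.12 and 12.38 in the luciferase arrays. The groups overlapped, since the sh_84 replicate 2 value lay between the lowest control values. The mean was 12.12 ± 0.04 (SD, n = 2) with sh_84 and 12.24 ± 0.12 (SD, n = 4) in the controls, a difference of -0.12 (SE 0.09, limma adjusted p = 0.859), which puts the transcript at 92.0% of control. With sh_83 the same probe set read 9.79 and 9.94. H2AZ2 was at 11.20 and 11.07 with sh_84, against 10.94, 10.99, 11.03 and 11.05 in the controls. Both sh_84 values lay above the 4 controls by a small margin, and the difference of 0.13 (SE 0.08, limma adjusted p = 0.75) did not pass. The hairpin sequences were not used here, so neither a match to H2AZ1 nor to any other transcript was examined.

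**Figure D1:**
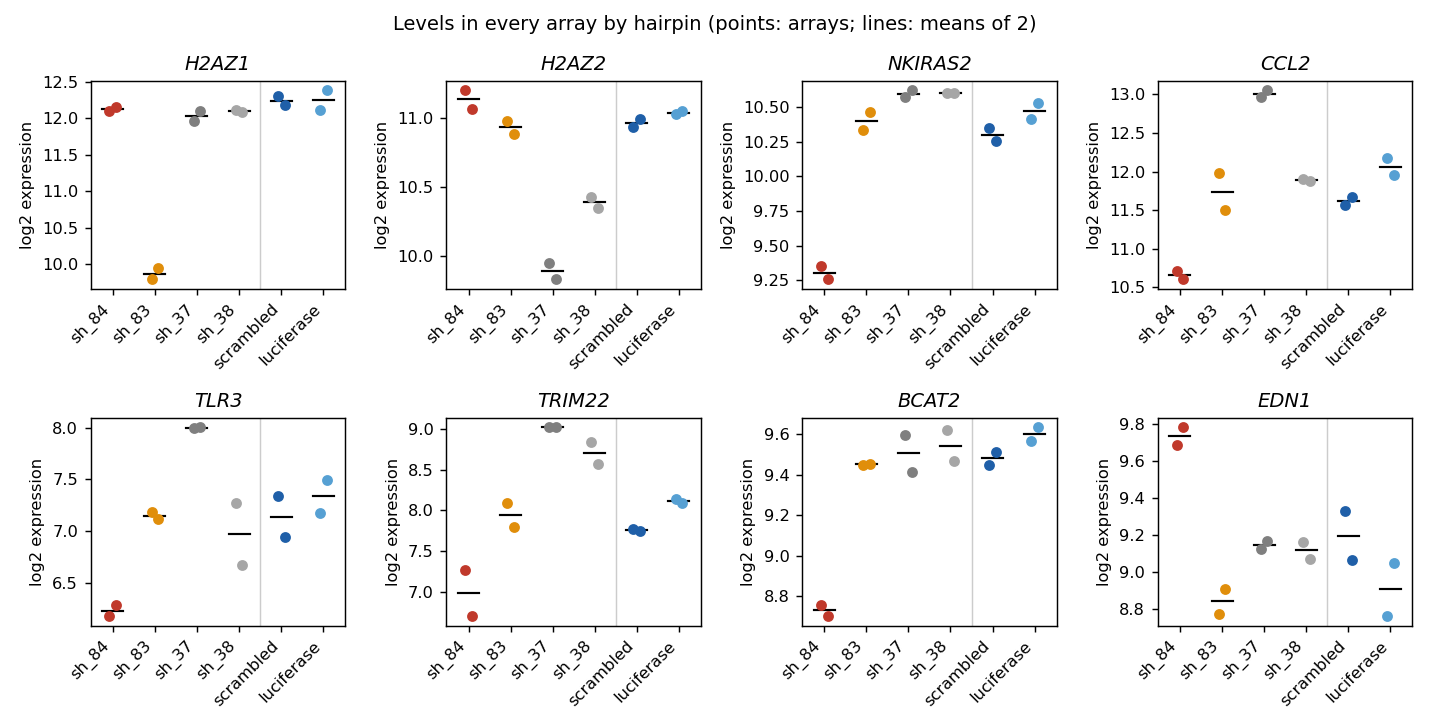
Log2 expression of 8 genes in each of the 12 arrays by hairpin, with H2AZ1 hairpins first, H2AZ2 hairpins next and the control hairpins at the right of the grey line. H2AZ1 with sh_84 stands at the level of the controls and NKIRAS2, CCL2, TLR3, TRIM22 and BCAT2 stand below them, while EDN1 stands above.

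Against all 4 controls, 65 of 18417 genes passed the test at an adjusted p under 0.05, which is 0.353% of the genes tested. Of these 63 were lower with sh_84 (0.342%) and 2 were higher (0.0109%). These shares are the background for every count of list members called against all 4 controls below. At an unadjusted p under 0.05, 347 of the 18417 genes were higher and 1193 lower. Those are the background for counts at that level against all 4 controls. The 63 called falls ran from -0.40 to -1.18 with a median of -0.59, while the median over all genes was 0.01. Only 5 of the falls reached 1 log2 unit, 43 lay between 0.5 and 1, and 15 were smaller. In 53 of the 63 the sh_84 arrays also lay below all 10 other arrays of the series. The 4 controls among these 10 had entered the call itself. Over all genes, 1755 had sh_84 arrays below all 4 controls, and 780 (4.24% of all genes) had them below all 10. Just inside the threshold were CDK2AP1 (-0.40), SCARB1 (-0.41) and FCRLA (-0.48), and just outside it FABP4 (-0.59), IGFBP7 (-0.40) and AP1G2 (-0.46).

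**Figure D2:**
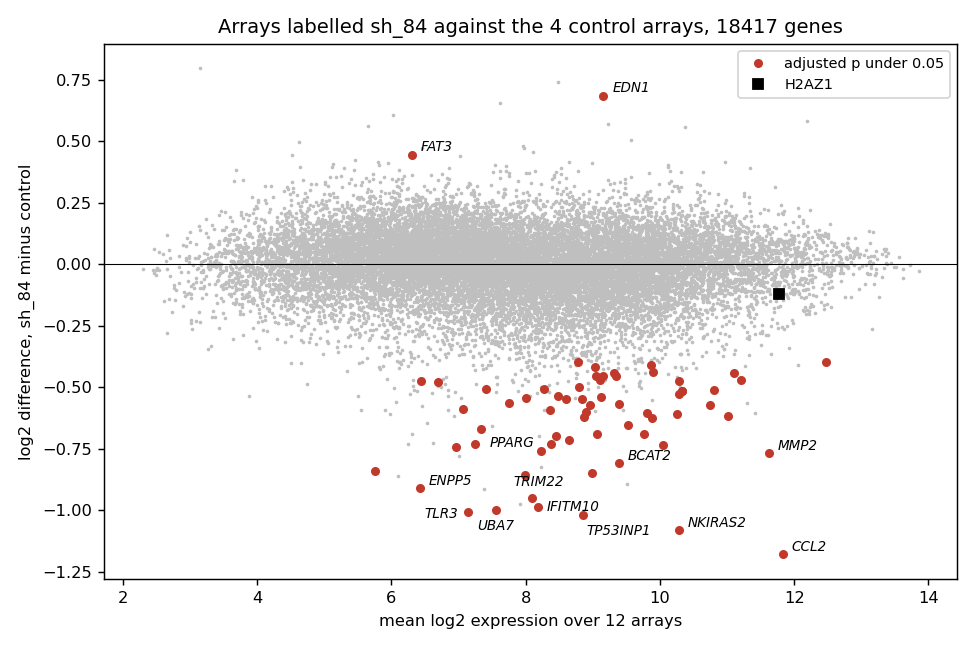
Log2 difference of sh_84 minus control (vertical) against the mean log2 expression over the 12 arrays (horizontal) for 18417 genes, with called genes in red and H2AZ1 as a black square. Of the 65 called genes 63 lie below 0, and only EDN1 and FAT3 lie above.

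These counts rest strongly on how the spread is estimated. With only the sh_84 and control arrays in the fit, 3 genes passed (CCL2, IFITM10 and NKIRAS2), and with the hairpin as a random block 2 passed (NKIRAS2 and BCAT2), while a replicate block gave 113. Leaving out sh_84 replicate 1 left 4 calls (LUM, NKIRAS2, TP53INP1 and TRIM22), leaving out sh_84 replicate 2, the array with the conflicting label, left 2 (NKIRAS2 and UBA7), and leaving out any 1 scrambled or luciferase array left 16 to 23. NKIRAS2 alone was called in all 19 other settings, and 28 of the 65 genes were called in 10 or more of those settings.

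The arrays were also compared as wholes. The SD of the gene differences was 0.19 between the sh_84 replicates, 0.17 between sh_84 and scrambled replicate 1, and 0.18 between sh_84 and scrambled replicate 2. Each sh_84 array was therefore slightly nearer to the scrambled array of its own number than to its own replicate. This did not hold across numbers, where sh_84 and scrambled arrays differed by an SD of 0.26 and 0.22. From sh_84 to the luciferase arrays the SD was 0.20 to 0.28, and to the sh_83 arrays 0.195 to 0.228. The scrambled replicates differed from each other by an SD of 0.27 and the luciferase replicates by 0.21. The mean level of 192 small nucleolar RNAs was 7.16 and 6.94 with sh_84, against 7.03 and 6.73 in scrambled and 7.09 and 7.17 in luciferase arrays, so it did not separate sh_84 from the controls. Of the melanocyte lineage list 0 of 22 measured genes were called by limma (1 higher and 1 lower at an unadjusted p under 0.05). MITF, the lineage regulator, measured 8.14 and 8.34 with sh_84 and 8.27 to 8.30 in the controls. SOX10, which acts above it, measured 10.45 on both sh_84 arrays and 10.52 to 10.80 in the controls. The pigment enzyme gene TYR read 4.73 and 4.66 with sh_84 and 4.77 to 4.88 in the controls, and no detection call was used here to say whether it was above background. Keratinocyte, endothelial and leukocyte marker lists had 0 called genes (0, 1 and 0 at an unadjusted p under 0.05), and the fibroblast list had 1 of 11, LUM.

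CCL2, NKIRAS2, TP53INP1, TLR3 and UBA7 had the largest falls of the called genes, all 63 of which had their sh_84 arrays below every control. CCL2, the chemokine that recruits monocytes, measured 10.72 and 10.60 with sh_84, against 11.57 and 11.67 with scrambled and 12.17 and 11.95 with luciferase. Both sh_84 arrays lay below every control, and luciferase stood above scrambled. The difference was -1.18 (SE 0.12, limma adjusted p = 0.00396), or 44.1% of control. In the list of chemokines and cytokines CCL2 was the only call among 31 measured genes, whose median difference was -0.03. CXCL1, a neutrophil chemokine, differed by -0.29 and CXCL8 by -0.20, and neither passed.

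NKIRAS2 encodes a small Ras-like protein that restrains NF-kB by holding back degradation of its inhibitor. It measured 9.35 and 9.26 with sh_84, against 10.35 and 10.25 with scrambled and 10.42 and 10.53 with luciferase. All 10 arrays without sh_84 lay between 10.25 and 10.62, so the sh_84 arrays stood well apart from every other hairpin. The difference from control was -1.08 (SE 0.08, limma adjusted p = 0.000686), or 47.3% of the control level. It was -0.996 against scrambled alone (limma adjusted p = 0.00665) and -1.17 against luciferase alone (limma adjusted p = 0.00114), and NKIRAS2 was the only gene called against both control hairpins apart. Over the 19 other settings its difference ranged from -1.13 to -1.03, with adjusted p-values between 5.35e-06 and 0.0217.

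The genes around NKIRAS2 on chromosome 17 were read next. ACLY, which makes acetyl-CoA from citrate, differed by -0.06, and DNAJC7, a co-chaperone, by 0.11. CNP differed by -0.19 and DHX58, an RNA sensor of the RIG-I family, by -0.26. None of 8 measured neighbours passed, the lowest limma adjusted p being 0.26. The rest of the NF-kB list of components and regulators was near the median of all genes: NKIRAS2 was the 1 call among 23 measured genes, the median was -0.05, and BCL3 (-0.30), CYLD (-0.22) and REL (-0.19) did not pass.

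TP53INP1, a p53-induced gene that takes part in autophagy and cell death, measured 7.68 and 7.18 with sh_84, against 8.22 and 8.13 with scrambled and 8.77 and 8.67 with luciferase. The sh_84 arrays were lower than every control but differed from each other by more than either control pair did. The difference was -1.02 (SE 0.13, limma adjusted p = 0.0109). In the p53 target list it was the only call among 22 measured genes, with a median of -0.12 for the list. The cell cycle inhibitor CDKN1A differed by -0.34, the stress gene SESN2 by -0.33 and the repair gene DDB2 by -0.30, each with the sh_84 arrays below all controls, and these did not pass. The list median per array was -0.11 and -0.15 with sh_84, against -0.08 and -0.09 in scrambled and 0.08 and 0.10 in luciferase arrays.

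BCAT2, the mitochondrial branched-chain aminotransferase, had tight replicates. It measured 8.76 and 8.70 with sh_84, against 9.45 and 9.51 with scrambled and 9.57 and 9.63 with luciferase, and no array of any other hairpin was below 9.41. The difference was -0.81 (SE 0.08, limma adjusted p = 0.00396). IFITM10, a member of the IFITM membrane protein family, measured 7.40 and 7.45 with sh_84, against 8.24 and 8.13 with scrambled and 8.55 and 8.74 with luciferase. These arrays did not overlap, and the difference of -0.99 (SE 0.09, limma adjusted p = 0.00396) held in 16 of the 19 other settings, as did that of BCAT2. ENPP5 (-0.91), a member of the ectonucleotide pyrophosphatase family, and FYB1 (-0.84), an adaptor protein of immune cells, fell too. With sh_84 ENPP5 measured 5.49 and 5.37, and FYB1 5.12 on both arrays. These values lay below the lower quartile of gene levels on those arrays, 6.24 and 6.33, and no detection call was used. A second FYB1 probe set differed by -0.37.

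CDH11, a mesenchymal cadherin, measured 7.30 and 7.05 with sh_84, against 7.89 and 7.997 with scrambled and 8.17 and 8.05 with luciferase (difference -0.86, SE 0.13, limma adjusted p = 0.0289). The groups did not overlap, although the 2 sh_38 arrays, at 7.57 and 7.22, lay among or near the sh_84 values. LUM, a small proteoglycan that binds collagen, measured 8.07 and 7.87 with sh_84, against 8.46 and 8.41 with scrambled and 9.14 and 9.25 with luciferase. The scrambled arrays lay nearer to the sh_84 arrays than to the luciferase arrays, and the LUM difference of -0.85 against control split into -0.47 against scrambled and -1.23 against luciferase. Among the other 10 fibroblast markers none was called, and the median of that list per array was -0.07 and 0.12 with sh_84, against -0.10 to 0.23 in the controls, where the groups overlapped. MMP2, a gelatinase, differed by -0.77, but it was the only call among 31 collagen and matrix genes, whose median was -0.04.

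Further falls are named here after their values were seen. ADAM12 (-0.74), a membrane-bound metalloprotease, and DACT1 (-0.71), a Wnt pathway modulator, also fell. PPARG, the nuclear receptor of fat cell differentiation, was at 7.89 and 7.90 with sh_84 and at 8.49 to 8.74 in the controls, without overlap, a difference of -0.73 (SE 0.08, limma adjusted p = 0.00396). CPT1A, which admits fatty acids to mitochondria, differed by -0.51, and CRAT, a carnitine acetyltransferase, by -0.46, both past the threshold. HMOX1, the haem-degrading enzyme, fell by 0.50 and the HDL receptor gene SCARB1 by 0.41. In all, 20 of the 65 called genes belonged to at least 1 of the 34 lists described, so most called genes lay outside any list.

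Only EDN1 and FAT3 rose. EDN1 encodes endothelin 1, a peptide that acts on the receptors EDNRA and EDNRB and promotes growth of melanocytes. It measured 9.69 and 9.79 with sh_84, against 9.33 and 9.06 with scrambled and 8.76 and 9.05 with luciferase. The sh_84 arrays lay above all 10 other arrays, as for FAT3. Over all genes, 877 had sh_84 arrays above all 4 controls, and 468 (2.54% of all genes) had them above all 10. EDN1 differed by 0.69 (SE 0.11, limma adjusted p = 0.0289), or 161% of control. It lost its call in 9 of the 19 other settings. The converting enzymes ECE2 (0.13) and ECE1 (0.06), the ligand EDN2 (0.11) and the receptor EDNRB (0.09) did not pass. FAT3, an atypical cadherin, measured 6.71 and 6.66 with sh_84, against 6.32 and 6.30 with scrambled and 6.14 and 6.20 with luciferase, without overlap. Its difference was 0.45 (SE 0.08, limma adjusted p = 0.043), and it kept its call in 5 settings. MRGPRX4 (0.74), EIF2S3B (0.61), H2BC12 (0.58) and ANKRD1 (0.57) stood above all controls and did not pass. H2BC12, a histone H2B gene, measured 12.42 and 12.58 with sh_84, against 11.89 and 11.75 with scrambled and 11.82 and 12.23 with luciferase (limma adjusted p = 0.0808).

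Interferon-stimulated genes, many of them antiviral effectors, were among the falls. Of 51 listed genes 50 were measured, and 7 fell with sh_84: UBA7, TRIM22, IFITM3, IFI35, IFI6, IFITM2 and UBE2L6. None rose. Over all genes 0.342% were called lower. The calls were fragile: none of the 7 passed with the hairpin as a random block or with only the sh_84 and control arrays in the fit, and of the 19 other settings UBA7 passed in 11, TRIM22 and IFITM2 in 10, IFI35 and UBE2L6 in 9, IFITM3 in 8 and IFI6 in 6. The list median was -0.30, against 0.01 over all genes, 45 of the 50 differences were below 0, and in 21 of the 50 genes the sh_84 arrays lay below all controls, a pattern found in 9.53% of all genes. Because the list was chosen with earlier results of these data known, no test of it is given.

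UBA7, the activating enzyme of the ubiquitin-like modifier ISG15, measured 6.34 and 6.98 with sh_84, against 7.67 and 7.43 with scrambled and 7.82 and 7.71 with luciferase. The groups did not overlap, but the sh_84 arrays lay farther apart than either control pair, and the difference of -1.0 (SE 0.15, limma adjusted p = 0.0289) was -0.68 without sh_84 replicate 1 and -1.32 without replicate 2. UBE2L6, the conjugating enzyme of the same pathway, measured 8.06 on both sh_84 arrays, against 8.45 and 8.63 with scrambled and 8.70 and 8.60 with luciferase, a difference of -0.54 (SE 0.09, limma adjusted p = 0.0296). The gene of the modifier itself, ISG15, differed by -0.04 (SE 0.11) and did not pass. TRIM22, an antiviral ubiquitin ligase, measured 7.27 and 6.70 with sh_84, against 7.78 and 7.75 with scrambled and 8.14 and 8.09 with luciferase (difference -0.95, SE 0.15, limma adjusted p = 0.0289). Here too both sh_84 arrays were below every control and the 2 disagreed on how far.

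IFITM3 and IFITM2 block entry of viruses at membranes. IFITM3 measured 10.57 and 10.38 with sh_84, against 10.95 and 11.04 with scrambled and 11.002 and 11.37 with luciferase (difference -0.62, SE 0.11, limma adjusted p = 0.0433). IFITM2 differed by -0.55, and since the 2 genes are close in sequence their probe sets may not separate them fully. IFI6, a mitochondrial protein with antiviral action, measured 8.36 and 8.33 with sh_84, against 8.73 and 8.82 with scrambled and 9.05 and 8.97 with luciferase (difference -0.55, SE 0.09, limma adjusted p = 0.0296). Neither gene's sh_84 arrays overlapped a control array. IFI35 differed by -0.59. Values that did not pass were -0.92 for SAMD9L, -0.78 for APOL6 and -0.73 for GBP2, each with sh_84 arrays below all controls. MX1 (-0.09), a classical interferon target, RSAD2 (-0.12) and OASL (0.10) were near 0.

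Because sensors, signalling and target genes sit at different steps, they were also read apart. TLR3, the endosomal receptor of double-stranded RNA, measured 6.18 and 6.28 with sh_84, against 7.34 and 6.94 with scrambled and 7.17 and 7.498 with luciferase. Its sh_84 arrays were below all 10 others, and the difference was -1.01 (SE 0.16, limma adjusted p = 0.0298). It was the 1 call among 19 nucleic acid sensors, whose median was -0.06, while 0.342% of all genes were called lower. TLR3 passed in 9 of the 19 other settings. MAVS, the mitochondrial adaptor, differed by -0.38, IFIH1 by -0.37 and STING1 by -0.27, and none of these passed. Of 17 interferon signalling genes 0 were called by limma (2 lower and 0 higher at an unadjusted p under 0.05), the list median being -0.04. Their lowest values were -0.39 for IRF2 and -0.36 for IRF9.

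**Figure D3:**
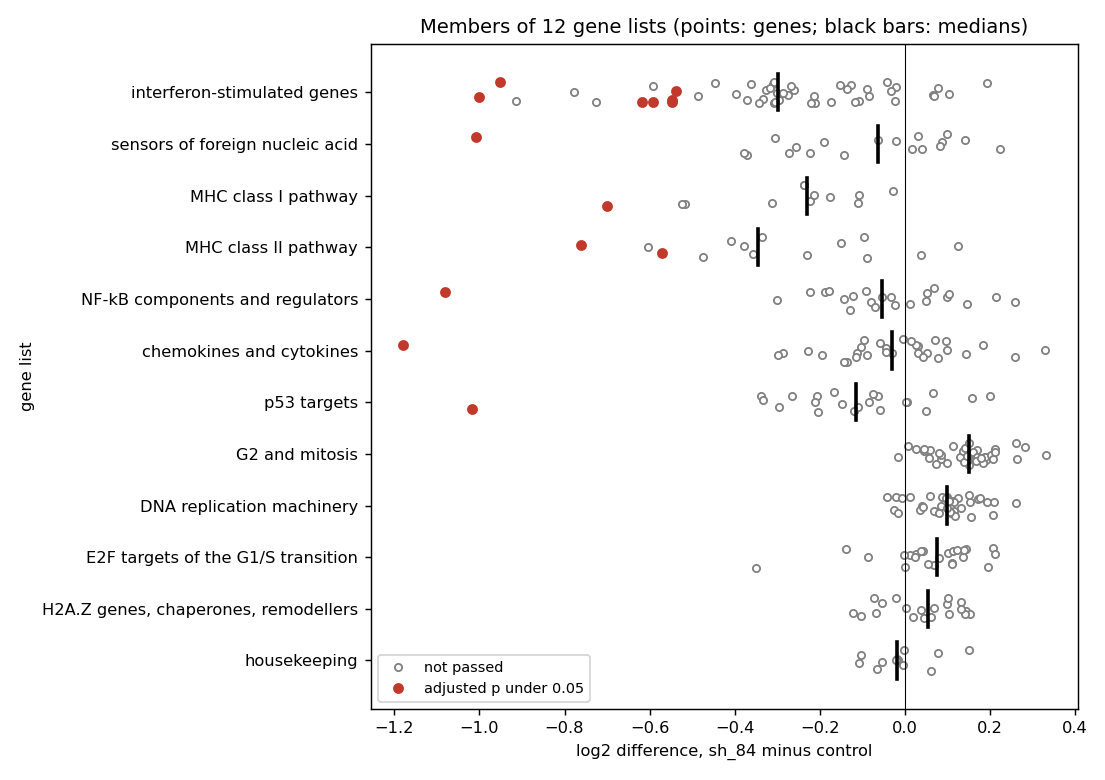
Log2 difference of sh_84 minus control for the measured members of 12 gene lists, 1 point per gene, with called genes filled in red and the list median as a black bar. The interferon-stimulated and both MHC lists lie mostly left of 0 with medians of -0.30, -0.23 and -0.35, and the G2 and mitosis list lies right of 0 with a median of 0.15 and 0 calls.

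Promoter sequence was read for the called interferon genes with a RefSeq window, IFI6, IFITM3, IFI35 and UBE2L6, and for TLR3, PSMB9 and NKIRAS2. The interferon response motif was found in IFI6 and IFITM3 (2 of 4, 50%) and in no window of IFI35 or UBE2L6. The windows of PSMB9 and NKIRAS2 held no match either. The IFI6 and IFITM3 windows are printed to show where the matches lie, and TLR3 as a window without one. The sequences are those of RefSeq on GRCh38.p14, covering the 250 bases before the annotated start, 5′ to 3′ on the gene's own strand, with matches to GAAANNGAAA in capitals. The windows are chr1:27672193-27672442 on the minus strand for IFI6, chr11:320861-321110 on the minus strand for IFITM3 and chr4:186068906-186069155 on the plus strand for TLR3.
IFI6: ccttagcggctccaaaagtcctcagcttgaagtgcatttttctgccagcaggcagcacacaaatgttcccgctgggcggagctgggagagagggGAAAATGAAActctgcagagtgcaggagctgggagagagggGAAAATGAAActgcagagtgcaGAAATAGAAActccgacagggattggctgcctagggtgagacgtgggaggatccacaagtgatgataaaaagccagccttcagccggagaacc
IFITM3: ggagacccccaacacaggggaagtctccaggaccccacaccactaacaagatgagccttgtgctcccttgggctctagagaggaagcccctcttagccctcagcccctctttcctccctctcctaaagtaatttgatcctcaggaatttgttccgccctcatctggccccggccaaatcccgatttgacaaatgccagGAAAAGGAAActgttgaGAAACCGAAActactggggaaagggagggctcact
TLR3: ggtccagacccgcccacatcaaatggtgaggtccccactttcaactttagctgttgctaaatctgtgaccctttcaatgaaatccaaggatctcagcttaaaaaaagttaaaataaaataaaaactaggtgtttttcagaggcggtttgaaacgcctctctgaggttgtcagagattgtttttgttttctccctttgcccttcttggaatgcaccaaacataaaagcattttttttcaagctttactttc
In IFI6 the 3 matches begin 156, 115 and 93 bases before the start, and in IFITM3 the 2 matches begin 52 and 35 bases before it. The TLR3 window holds no match in these letters on either strand. Over the tested genes with a RefSeq window, 3.53% (502 of 14239) held the motif on either strand. Among the genes called lower it was 3 of 46 (6.52%), among the measured interferon list 27 of 39 (69.2%), and among the 42 called genes outside that list 1 (2.38%). The share was high over the interferon list as a whole, and among the other called genes it was not above that over all genes. A match is a description of the letters and was not tested as a binding site.

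Antigen presentation genes mostly had differences below 0, and few passed. PSMB9, a subunit of the immunoproteasome that cuts peptides for MHC class I, measured 7.87 and 7.82 with sh_84, against 8.32 and 8.42 with scrambled and 8.80 and 8.62 with luciferase. The arrays did not overlap, and the difference was -0.70 (SE 0.11, limma adjusted p = 0.0318) on the 1 probe set tested. All 3 PSMB9 probe sets gave the same means, 7.84 with sh_84 and 8.54 in the controls, so they are not counted as separate measurements. PSMB9 was the 1 call among 12 measured class I pathway genes. All 12 had differences below 0, 7 had sh_84 arrays below all controls, and the median was -0.23. Over all genes 0.342% were called lower and 9.53% lay below all controls. Against scrambled alone the list median was -0.13 with 0 calls by limma (4 lower at an unadjusted p under 0.05, beside 635 of all 18417 genes). Against luciferase alone it was -0.35 with 3 calls lower, beside 0.608% of all genes called lower against luciferase. PSMB8, another immunoproteasome subunit, and the peptide transporter TAP1 differed by -0.52 each from all 4 controls and did not pass there. Outside the list, and named after their values were seen, TAPBPL (-0.51), a peptide editor of class I, and MR1 (-0.73), which presents microbial vitamin metabolites, fell. Of the 19 other settings PSMB9 and TAPBPL passed in 8 and MR1 in 6. Against scrambled alone TAPBPL differed by -0.39 and MR1 by -0.48, and neither passed.

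In the class II pathway 2 of 14 measured genes fell, HLA-DQA1 and HLA-DMA, and the median was -0.35, with sh_84 arrays below all controls in 10 of 14, beside 0.342% of all genes called lower and 9.53% below all controls. HLA-DQA1 passed in 10 of the 19 other settings and HLA-DMA in 6. HLA-DQA1, a chain of a peptide-presenting class II molecule, measured 8.04 and 7.93 with sh_84, against 8.65 and 8.56 with scrambled and 8.85 and 8.92 with luciferase (difference -0.76, SE 0.12, limma adjusted p = 0.0289). HLA-DMA, which helps load peptides, differed by -0.57. HLA-DPB1 (-0.60), HLA-DMB (-0.48) and HLA-DPA1 (-0.41) did not pass. Probe sets of HLA genes can read related copies, so single genes are uncertain. IFI30, a lysosomal reductase that opens disulphide bonds of class II antigens, was at 9.16 and 8.96 with sh_84 and at 9.54 to 9.94 in the controls, a difference of -0.69 (SE 0.08, limma adjusted p = 0.00694), and was named after its value was seen. These cells were measured in bulk, so fewer cells that express a gene and less RNA per cell cannot be told apart.

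Class II list medians below 0 were present with sh_83, sh_37 and sh_38 as well. The list median per array was -0.24 and -0.44 with sh_84 and -0.16 and -0.34 with sh_83. With sh_37 it was -0.18 and -0.34, and with sh_38 -0.23 and -0.26. In the controls it was -0.08 and -0.14 with scrambled and 0.14 and 0.08 with luciferase. HLA-DQA1 measured 7.58 to 8.17 on the sh_83, sh_37 and sh_38 arrays. Between sh_84 and sh_83 the median difference of the class II list was 0.01 with 0 calls by limma (1 higher and 2 lower at an unadjusted p under 0.05). Over all 18417 genes 1094 were higher and 1085 lower at that level against sh_83. For the interferon list the median per array was -0.23 and -0.36 with sh_84, against 0.04 and -0.11 with sh_83, -0.07 and -0.17 with scrambled and 0.10 and 0.12 with luciferase. Both sh_84 arrays were the lowest of the 12, and the scrambled arrays lay between them and the luciferase arrays. Between sh_84 and sh_83 the median difference of the interferon list was -0.21, and 3 of its genes were called lower with sh_84, IFI44L, TRIM22 and UBA7. In that comparison 0.717% of all genes were called lower.

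**Figure D4:**
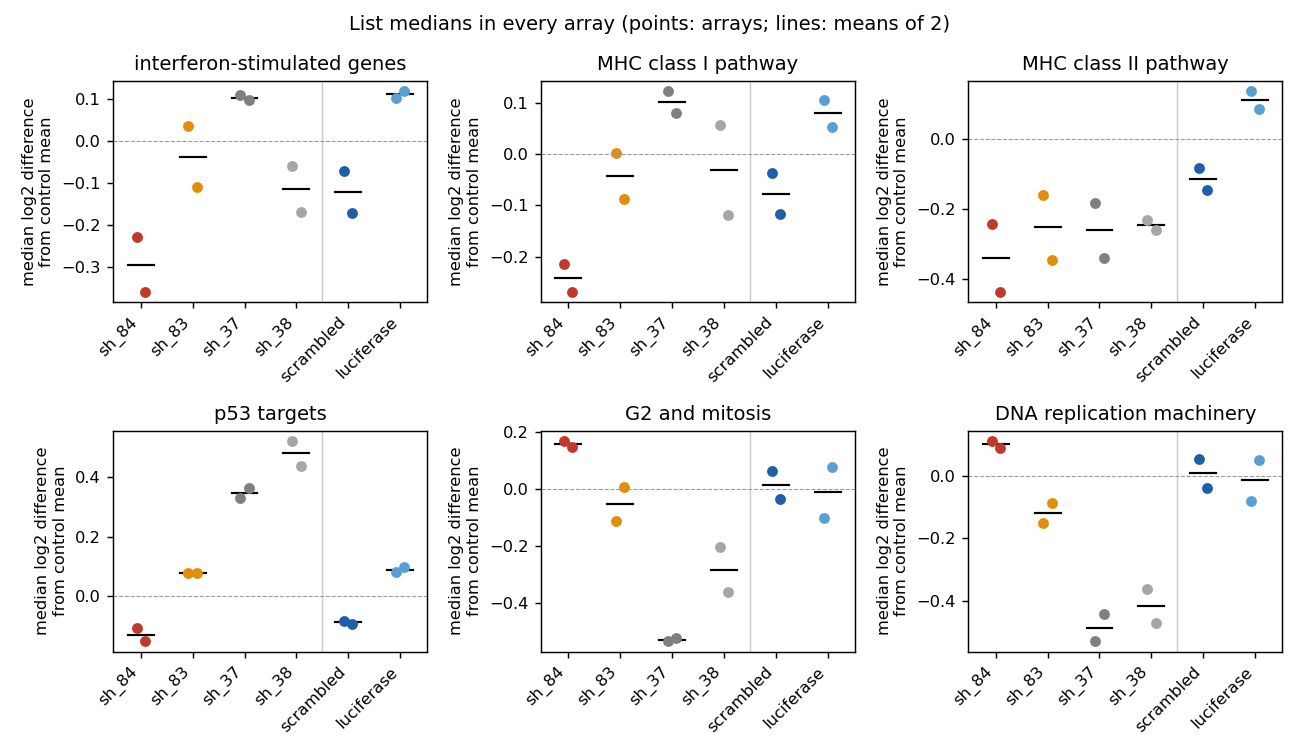
Median over the members of 6 lists of each array's log2 difference from the mean of the 4 controls, for 6 hairpins with 2 arrays each. The sh_84 arrays are the lowest of the 12 for the interferon and MHC class I lists, while for MHC class II the sh_83, sh_37 and sh_38 arrays lie in the same range.

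Proliferation genes mostly had small differences above 0, and none passed. Of 40 genes of G2 and mitosis, 39 had differences above 0, 15 had sh_84 arrays above all controls against 4.76% of all genes, and the median was 0.15. By limma 0 were called, and 4 were higher at an unadjusted p under 0.05. Over all genes 347 of 18417 were higher at that level and 1193 lower. HMMR, a spindle protein, differed by 0.33 (SE 0.15, limma adjusted p = 0.606) and the mitotic kinesin gene KIF18A by 0.26. The list median per array was 0.17 and 0.15 with sh_84, against 0.06 and -0.04 in scrambled and -0.10 and 0.08 in luciferase arrays. For 37 replication genes the median was 0.10, for 24 E2F targets 0.07 and for 42 clustered histone genes 0.09, each with 0 calls by limma (1, 0 and 5 higher and 0, 1 and 0 lower at an unadjusted p under 0.05). POLA1, the catalytic subunit of polymerase alpha, differed by 0.26 and CDC25A, a phosphatase of the G1/S transition, by 0.21.

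The H2A.Z machinery and the RNA interference machinery were near the median of all genes. Of 20 measured genes for H2A.Z, its chaperones and remodellers, 0 were called by limma (0 at an unadjusted p under 0.05) and the median was 0.05. ACTL6A and RUVBL1, subunits of H2A.Z remodelling complexes, differed by 0.15 and 0.14, and the H2A.Z chaperone ANP32E by 0.14. Of 13 genes of the microRNA and RNA interference pathway 0 were called (2 higher at an unadjusted p under 0.05), with a median of 0.04. DICER1 measured 10.77 and 10.75 with sh_84, against 10.26 to 10.65 in the controls, a difference of 0.33 (SE 0.09, limma adjusted p = 0.224), and XPO5, which exports precursor hairpins from the nucleus, differed by 0.19. Of 22 MAPK output genes 0 were called (2 higher at an unadjusted p under 0.05), SPRY4, a feedback inhibitor, standing at 0.34 and MYC at 0.26. Of 12 housekeeping genes 0 were called (0 at an unadjusted p under 0.05) and the median was -0.02.

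The control hairpins were then taken apart. Against scrambled alone 1 of 18417 genes passed (0.00543%), NKIRAS2, while 944 had an unadjusted p under 0.05. Against luciferase alone 116 passed (0.63%), of which 112 were lower (0.608%) and 4 higher (0.0217%). Between scrambled and luciferase limma called 0 genes, with 1384 at an unadjusted p under 0.05. These comparisons share arrays, and the values of single genes are therefore given side by side. Against scrambled CCL2 differed by -0.96 (limma adjusted p = 0.111), against luciferase by -1.40 (limma adjusted p = 0.00278). TLR3 differed by -0.91 against scrambled and -1.11 against luciferase, and BCAT2 by -0.75 and -0.87. The interferon list had a median of -0.14 against scrambled with 0 calls by limma (11 lower at an unadjusted p under 0.05), of -0.41 against luciferase with 11 calls lower, and of -0.21 for scrambled minus luciferase with 0 calls (16 lower at an unadjusted p under 0.05). For this list the scrambled arrays were thus themselves below the luciferase arrays, without a gene that passed.

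**Figure D5:**
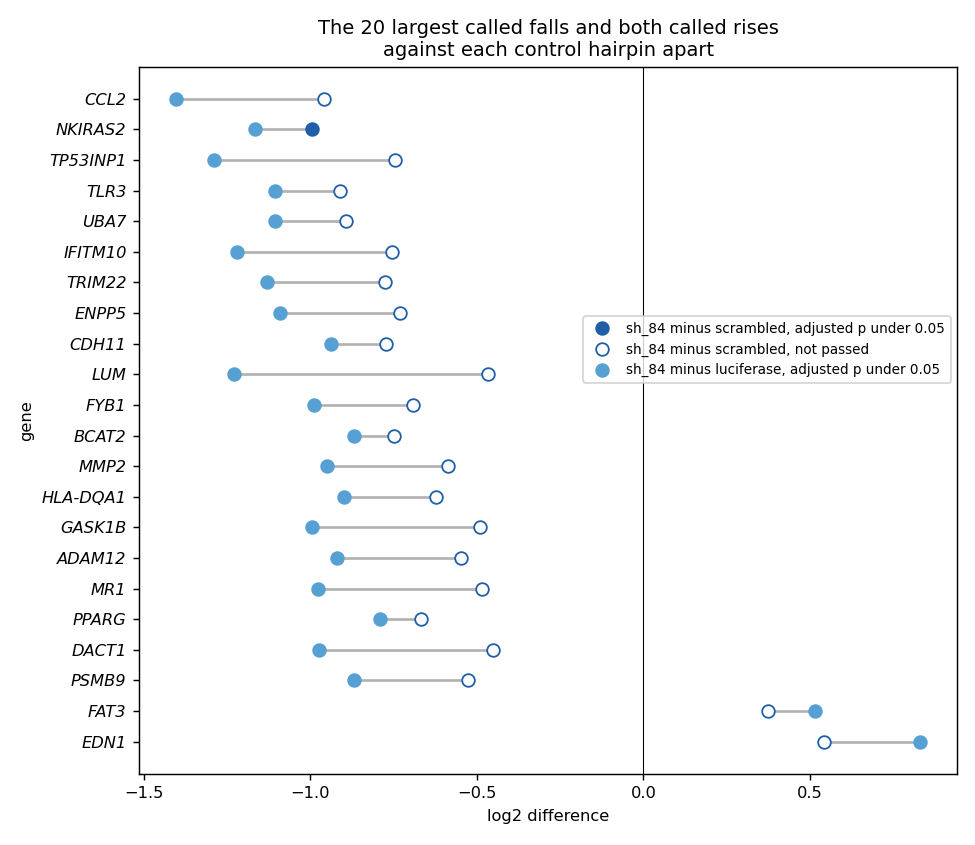
Log2 differences of sh_84 minus scrambled (dark blue) and sh_84 minus luciferase (light blue) for the 20 largest called falls and both called rises, filled where the adjusted p was under 0.05. Each gene has the same direction against either control hairpin, each difference is larger against luciferase, and only NKIRAS2 is filled for scrambled.

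The arrays labelled sh_84 were also set against sh_83, the other hairpin for the same gene. Limma called 219 genes (1.19%), 87 higher (0.472%) and 132 lower (0.717%) with sh_84. H2AZ1 was the largest separated rise, at 12.10 and 12.15 with sh_84, against 9.79 and 9.94 with sh_83, a difference of 2.25 (SE 0.11, limma adjusted p = 1.02e-05). LBR, the lamin B receptor of the nuclear envelope, measured 10.16 and 10.14 with sh_84, against 8.91 and 9.01 with sh_83 (difference 1.19, SE 0.10, limma adjusted p = 0.000675). DEGS1, a desaturase of ceramide synthesis, differed by 1.13, CLGN, a chaperone of the endoplasmic reticulum, by 1.05 and MRGPRX4, a sensory neuron receptor, by 1.30. Against control LBR differed by 0.23, DEGS1 by 0.03 and CLGN by 0.09 with sh_84, and none of these passed.

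Among the falls against sh_83 TP53INP1 stood first, at 7.68 and 7.18 with sh_84, against 9.21 and 9.04 with sh_83 (difference -1.70, SE 0.15, limma adjusted p = 0.00074). The control arrays, at 8.13 to 8.77, lay between the 2 hairpins. The same order was seen for GPNMB, a lysosomal and melanosomal glycoprotein, at 5.52 and 6.11 with sh_84, against 7.30 and 7.59 with sh_83 and 6.12 to 6.52 in the controls. Its difference from sh_83 was -1.63 (limma adjusted p = 0.00187). CDH11 differed by -1.43, ATP6V0D2, a subunit of the vacuolar proton pump, by -1.50 and SPINK1, a trypsin inhibitor, by -1.42. NKIRAS2, CCL2 and BCAT2 were lower than with sh_83 by differences of -1.09, -1.08 and -0.72, each past the threshold. IFI6 (-0.18) and HLA-DQA1 (0.20) did not pass against sh_83.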

How the data were processed

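Messenger RNA of SK-mel147 cells was measured on Affymetrix Human Gene 1.0 ST arrays. The deposited values are log2 expression per probe set, which the authors computed with RMA, per the submitters' processing notes. The version is not given in the sources used here. The medians of the columns lay between 7.0 and 7.1, and no normalization was added. Of 33297 probe sets, 19460 had 1 symbol in the platform annotation, 1754 several and 12083 none listed, and 19429 matched the RefSeq gene table by Entrez ID. For 769 genes with several probe sets the brightest was kept, giving 18417 genes. Detection calls and scan dates were not used here.

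Limma 3.58.1 in R 4.3.3 was fitted to all 12 arrays as 6 hairpins of 2, so the spread of every hairpin enters each test (prior degrees of freedom 4.7). P-values were adjusted by Benjamini-Hochberg over all genes, with a threshold of 0.05. Percentages of control are 2 to the power of the log2 difference. The script was tested on simulated data. Gene lists (34, with 663 of 720 entries measured) are described by counts and medians without a test. Members, lists and comparisons were chosen with earlier results of these data known. Named genes are H2AZ1 and H2AZ2, the 12 largest falls and the rises up to 6 with arrays apart from the controls, genes called against each control hairpin, up to 5 members of 15 lists, and the 5 largest called each way against sh_83; all other genes were named after their values were seen. Deviations of same-numbered sh_84 arrays correlated with those of sh_38 (0.59), scrambled (0.54), sh_37 (0.38) and sh_83 (0.18), and negatively with luciferase (-0.31). Scrambled and luciferase correlated at -0.47 and scrambled and sh_83 at -0.01. The correlation of scrambled with sh_38 was 0.68. Since not every pair was positive, the numbers were not taken as pairs in the main fit, which leaves a deviation shared by some hairpins in the spread. With the numbers as a block, 113 genes passed against control. With the luciferase numbers swapped in that block (the crossed block, chosen after seeing the data), 193 passed. Alternatives changed the arrays in the fit, the grouping, the probe set rule, blocks, the variance model, median centring, quantile normalization and removal of the 25% dimmest genes. Upstream windows of 250 bases came from RefSeq. Figures were drawn with matplotlib 3.10.9.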

Additional observations from a re-analysis of the deposited data

Results flagged for a closer look

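Values of single arrays or differences between the H2AZ1 hairpins stood out as follows. Among the 4 control arrays 1 array lay far from the other 3 for 4 of 93 genes checked: ANKRD1 at 8.41 in luciferase replicate 1 (others 9.07 on average), IFNAR2 at 7.48 in scrambled replicate 2 (7.98), CXCL1 at 11.86 in luciferase replicate 2 (12.08) and MYC at 9.48 in scrambled replicate 1 (9.22). Chance alone marks about 1 in 20 groups in this way. Between sh_84 and sh_83, limma found differences of 2.25 for H2AZ1, 1.30 for MRGPRX4, 1.19 for LBR, 1.13 for DEGS1 and 1.05 for CLGN, and of -1.70 for TP53INP1, -1.63 for GPNMB, -1.50 for ATP6V0D2, -1.43 for CDH11 and -1.42 for SPINK1.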

How the results depend on the processing

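The count of 65 genes against control was 3 with only the sh_84 and control arrays in the fit, 31 with the controls as 1 group, 2 with the hairpin as a random block, 114 without the dimmest 25% of genes, 176 with a trended robust variance, 113 with a replicate block, 193 with a crossed replicate block and 354 with the small nucleolar RNA level as a covariate, and ranged from 2 to 28 with 1 array left out. Against scrambled (1) the same settings gave 0, 3, 23, 8 and 13 for the 6 arrays alone, the filter, the variance model, the crossed block and the covariate, 2 after renormalization and 0 to 2 with 1 array left out; the replicate block kept 1. Against luciferase (116) they gave 14, 186, 268, 492 and 385, with 67 after centring, 291 with the replicate block and 7 to 150 with 1 array left out. Between scrambled and luciferase the crossed block gave 2 and the other settings 0. Against sh_83 (219) the counts were 467 with the variance model, 343 with the replicate block, 618 with the crossed block, 520 with the covariate and 34 to 237 with 1 array left out. The cause of these changes was not tested. Some settings themselves bring a lower number of arrays or genes, and the share of that in the changes was not tested either. The crossed block, the covariate and the omission of sh_83 arrays were chosen after seeing the data. Where an array is left out, its remaining partner is assumed to vary like the other groups. H2AZ1 stayed between -0.19 and -0.06 and passed in no setting. Directions turned for small differences that did not pass. With 1 array left out, DEGS1 ranged from -0.042 to 0.094 (below 0 without sh_84, scrambled or luciferase replicate 1, at -0.006 and -0.004 for the control arrays), CLGN from -0.045 to 0.214 (below 0 without sh_84 replicate 1), AIM2 from -0.763 to 0.152 (above 0 without sh_84 replicate 2), AGO3 from -0.018 to 0.149 and TNRC6B from -0.083 to 0.211 (both below 0 without sh_84 replicate 1 or scrambled replicate 2, AGO3 at -0.002 and TNRC6B at -0.052 in the other case), and ECE1 from -0.009 to 0.134 (below 0 without luciferase replicate 2). Other single-gene results were the same in 1726 cases, lost their call in 124 and gained one in 37. Signal over background is unknown here, which limits what can be said of dim genes.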

Other observations

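Several gene groups belong to no comparison above and held few or no calls in the sh_84 arrays against control. In the complement list 1 of 11 genes fell, C1R, the protease that starts the classical pathway, at 7.53 and 7.63 with sh_84 and 7.98 to 8.28 in the controls (difference -0.54, SE 0.09, limma adjusted p = 0.029), with a list median of -0.09. Of 15 cadherins and cadherin-like genes 1 rose (FAT3) and 1 fell (CDH11), with a median of -0.03. Limma called 0 of 17 cholesterol genes, whose median was -0.12 (5 lower at an unadjusted p under 0.05), 0 of 17 stress response genes (median -0.07, 1 lower), 0 of 8 heat shock genes (median -0.04, 2 lower) and 0 of 15 hypoxia genes (median -0.02, 0 at that level). It also called 0 of 17 death receptor and caspase genes (median 0.004, 0), 0 of 6 other histone variants (median 0.01, 1 lower), 0 of 17 TGF-beta, BMP and YAP genes (median 0.02, 2 higher), 0 of 23 ribosomal protein genes (median 0.07, 0) and 0 of 20 genes of dedifferentiated melanoma (median -0.02, 1 lower). AXL, a receptor kinase typical of that state, measured 12.50 on both sh_84 arrays and 12.38 to 12.58 in the controls. Over keratinocyte, fibroblast, endothelial and leukocyte markers the medians were 0.06, 0.03, 0.05 and -0.01.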
